A study of Mus musculus with 3 samples.

Results

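The 35 genes described here encode the contact between a cell and its extracellular matrix: 10 integrin alpha chains, 5 integrin beta chains, 7 laminin chains, 3 collagen IV chains, 5 other matrix proteins (fibronectin, tenascin-C, perlecan, agrin and nidogen), the laminin receptor dystroglycan, and 4 cytoplasmic proteins of adhesion sites. They were taken as a list by symbol, and all 35 matched among the 21883 protein-coding genes of the RefSeq annotation used. Open chromatin was measured by ATAC-seq, in which a transposase cuts accessible DNA, in 3 libraries of mouse oligodendrocyte lineage cells. The wild type progenitor library came from oligodendrocyte progenitor cells kept in medium with PDGF-AA, CNTF, bFGF and NT3; its title reads DO, taken here to mean day 0. The control day 1 library came from wild type cells after 1 day with 60 nM triiodothyronine (T3), the thyroid hormone that starts differentiation, with PDGF-AA, bFGF and NT3 withdrawn. The Seh1cKO library came from cells with that genotype, a conditional knockout of the nucleoporin Seh1, under the same T3 treatment. All cells were C57BL/6, immunopanned with anti-GalC and anti-O4 from cortices of postnatal days 4 to 7, with 50000 cells per library. The Cre line and the number of animals are not given in the sources used here, and Seh1cKO progenitors were not analysed here.

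With 1 library per group there is no replicate check, so no test and no p-value is given; the 95% intervals cover counting error only. The progenitor, control day 1 and Seh1cKO peak tables rest on 23403600, 18260883 and 10845533 fragments and hold 108788, 118441 and 46113 peaks. The lowest pileup (fragments stacked at a peak's summit) called was 9, 8 and 6 fragments, so an absent peak is a call at that depth and not a closed site. In such bulk libraries fewer cells with a site open and less signal per cell cannot be told apart. The targeted gene, Seh1l, had a gene-end peak in all 3 libraries, at 77, 70 and 47 fragments; a peak at a gene end does not check a deletion. Among markers of the labelled cells, 7 of 8 oligodendrocyte progenitor genes had a gene-end peak in each library, all but Cspg4. Peaks at gene ends did not set these cells apart from other types, since 7 of 8 astrocyte genes also had one in each library. In progenitors, control day 1 and Seh1cKO, 7, 7 and 5 of 8 neuronal genes and 5, 6 and 4 of 8 oligodendrocyte genes had one. Of all protein-coding genes 62.4%, 63.2% and 56.2% did. Of 8 microglial genes 4, 3 and 2 had one (P2ry12 and Spi1 in all 3 libraries, none at Aif1, Cx3cr1 or Csf1r), of 9 endothelial and mural genes 4, 5 and 4 (Flt1, Kdr and Kcnj8 in all 3, none at Pecam1 or Cdh5), and of 6 fibroblast genes 1, 3 and 1 (none at Dcn, Lum or Col3a1). The summed gene-end pileup of the microglial list was 3.89, 5.64 and 2.86 FPM (fragments at the summit per 1000000 fragments of the library), that of the endothelial and mural list 4.49, 6.90 and 5.16 and that of the fibroblast list 0.855, 3.18 and 1.29; the part of such cells in the values below was not tested.

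Integrins are receptors of 1 alpha and 1 beta chain that span the membrane and bind matrix proteins outside the cell. Inside the cell talin and vinculin couple their beta chains to actin, while focal adhesion kinase and integrin-linked kinase pass signals on. Laminins are trimers of an alpha, a beta and a gamma chain, and with collagen IV, nidogen and perlecan they build basement membranes. In the oligodendrocyte lineage, laminin contact through integrin alpha 6 beta 1 and dystroglycan is known to bear on survival, process outgrowth and myelination, and loss of the laminin alpha 2 chain causes a muscular dystrophy with changes of white matter.

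The 250 bases before the annotated start of 8 of these genes are shown, because they span the range of what the libraries gave at the starts. Vcl, Itgb1 and Dag1 were among the 4 members with the highest gene-end pileup at control day 1, Itgav had a start peak away from its annotated end, Itga4 and Tnc had the lowest ratios between the controls, Itga2 was called in 1 library, and Lama2 had no peak in its window. Sequences are from RefSeq (GRCm38.p6, the assembly of mm10), 5′ to 3′ on the gene's strand, and capitals mark matches to the motif letters named after them.
Vcl: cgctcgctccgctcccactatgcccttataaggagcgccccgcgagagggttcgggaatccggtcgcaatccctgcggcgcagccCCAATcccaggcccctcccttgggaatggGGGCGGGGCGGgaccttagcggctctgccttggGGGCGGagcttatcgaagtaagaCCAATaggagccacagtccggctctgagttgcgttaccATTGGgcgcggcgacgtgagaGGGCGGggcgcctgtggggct
Itgb1: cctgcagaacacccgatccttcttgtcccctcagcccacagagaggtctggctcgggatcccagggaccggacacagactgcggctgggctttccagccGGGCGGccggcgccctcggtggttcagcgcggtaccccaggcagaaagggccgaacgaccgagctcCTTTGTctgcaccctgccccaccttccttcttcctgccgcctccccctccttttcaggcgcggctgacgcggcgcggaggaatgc
Dag1: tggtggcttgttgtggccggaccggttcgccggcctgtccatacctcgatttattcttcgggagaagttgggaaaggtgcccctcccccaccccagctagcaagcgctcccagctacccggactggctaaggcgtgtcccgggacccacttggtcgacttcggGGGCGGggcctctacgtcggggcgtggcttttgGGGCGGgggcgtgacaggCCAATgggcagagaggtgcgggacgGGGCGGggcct
Itgav: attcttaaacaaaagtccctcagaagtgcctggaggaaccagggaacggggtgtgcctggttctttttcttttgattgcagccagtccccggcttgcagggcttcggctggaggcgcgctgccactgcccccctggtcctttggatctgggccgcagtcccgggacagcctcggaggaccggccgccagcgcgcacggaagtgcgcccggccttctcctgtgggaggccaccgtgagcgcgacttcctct
Itga4: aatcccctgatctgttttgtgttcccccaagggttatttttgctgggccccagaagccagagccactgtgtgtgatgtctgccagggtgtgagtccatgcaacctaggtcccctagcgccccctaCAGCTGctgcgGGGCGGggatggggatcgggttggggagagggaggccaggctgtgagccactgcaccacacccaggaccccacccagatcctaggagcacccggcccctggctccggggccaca
Tnc: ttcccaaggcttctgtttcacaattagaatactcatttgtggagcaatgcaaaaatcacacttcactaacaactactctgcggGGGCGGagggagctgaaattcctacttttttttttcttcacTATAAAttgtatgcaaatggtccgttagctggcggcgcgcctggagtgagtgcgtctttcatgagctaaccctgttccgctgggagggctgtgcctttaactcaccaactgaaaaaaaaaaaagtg
Itga2: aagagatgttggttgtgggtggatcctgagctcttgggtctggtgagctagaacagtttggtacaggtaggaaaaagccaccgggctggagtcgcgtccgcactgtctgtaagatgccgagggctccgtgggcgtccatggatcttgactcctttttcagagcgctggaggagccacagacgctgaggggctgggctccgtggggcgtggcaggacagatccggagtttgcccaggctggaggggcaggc
Lama2: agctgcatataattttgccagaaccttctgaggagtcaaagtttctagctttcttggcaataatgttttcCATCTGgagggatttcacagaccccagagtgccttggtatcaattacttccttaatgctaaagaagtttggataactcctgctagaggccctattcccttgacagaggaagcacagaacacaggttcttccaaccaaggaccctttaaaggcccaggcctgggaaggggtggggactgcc
They lie at chr14:20929148-20929397, chr8:128685404-128685653, chr9:108263959-108264208, chr2:83724147-83724396, chr2:79255176-79255425, chr4:64047016-64047265, chr13:114932101-114932350 and chr10:27616943-27617192, of which Vcl, Itgb1, Itgav and Itga4 are on the plus strand and the others on the minus strand. The Vcl stretch holds 24 CpG dinucleotides, 4 matches to GGGCGG and 3 to CCAAT or its complement. The Lama2 stretch holds 0 CpG, with 47.2% G and C, and the Tnc stretch holds TATAAA at -126 to -121 from the start.

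RefSeq promoter windows (250 bases before to 50 after a start) were at hand for 26 of the 35 genes, 31 windows in all; Itga6, Itga7, Itgb3, Itgb4, Lama1, Lama4, Lamc1, Fn1 and Ptk2 had none. Their median G and C content was 64.3% against 52.7% over the 32851 windows of the table, and their median CpG count 20 against 7. Among windows with a peak in any library the median CpG count was 24 against 21. The letter counts below were not split by peak. Both strands were searched for the letters GGGCGG (the core of Sp and Klf sites), CCAAT (NF-Y), CCGGAA (ETS), TGANTCA (AP-1), the E-boxes CAGCTG and also CATCTG, the Sox letters ACAAAG, the nuclear receptor half-site AGGTCA, which thyroid hormone receptors also use, and TATAAA of TATA boxes. The letters GGGCGG were in 24 of the 31 windows, 77.4% against 35.7% of all windows; copies can overlap each other, as in Vcl. CCAAT was in 10 (32.3% against 37.4%), CCGGAA in 5 (16.1% against 14.9%) and TGANTCA in 2 (6.45% against 7.81%). The E-box CAGCTG and the other E-box were in 5 windows each (16.1% against 16.3% and 17.2%), ACAAAG in 4 (12.9% against 18.7%) and TATAAA in 2 (6.45% against 13.6%). AGGTCA was in 0 of the 31, against 16.3% of all windows. These are matches of letters, and no window's match was tied to a factor. Some windows overlap, so the counts are of windows and not of distinct sites. Both windows with TATAAA were of Tnc and held the same copy, and both Ilk windows held the same CCGGAA.

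Most of these genes had accessible DNA at an end in every library. With a window of 1000 bp on either side of each annotated end, 31 members had a peak in progenitors (62.4% of all protein-coding genes), 31 at control day 1 (63.2%) and 28 in Seh1cKO (56.2%). Of the 35, 27 had such a peak in all 3 libraries (54.1% of all genes) and 3, Itgav, Itgb4 and Lamb1, in none (31.5%). The members with a peak were no higher than other genes: their median gene-end pileup was 1.71, 2.03 and 1.71 FPM, against 1.88, 2.52 and 2.86 over all genes with one. The highest peaks of compared libraries overlapped for every member that had one in both, 30 of 30 between the controls and 27 of 27 between the day 1 libraries. For 14 members the end of another gene lay within 2000 bp of either annotated end, and for 21 none did. A peak at that end may belong to either gene. The count did not check that the peak and the neighbour shared an end. Among the 14, Itgb4 and Lamb1 had no gene-end peak.

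**Figure D1:**
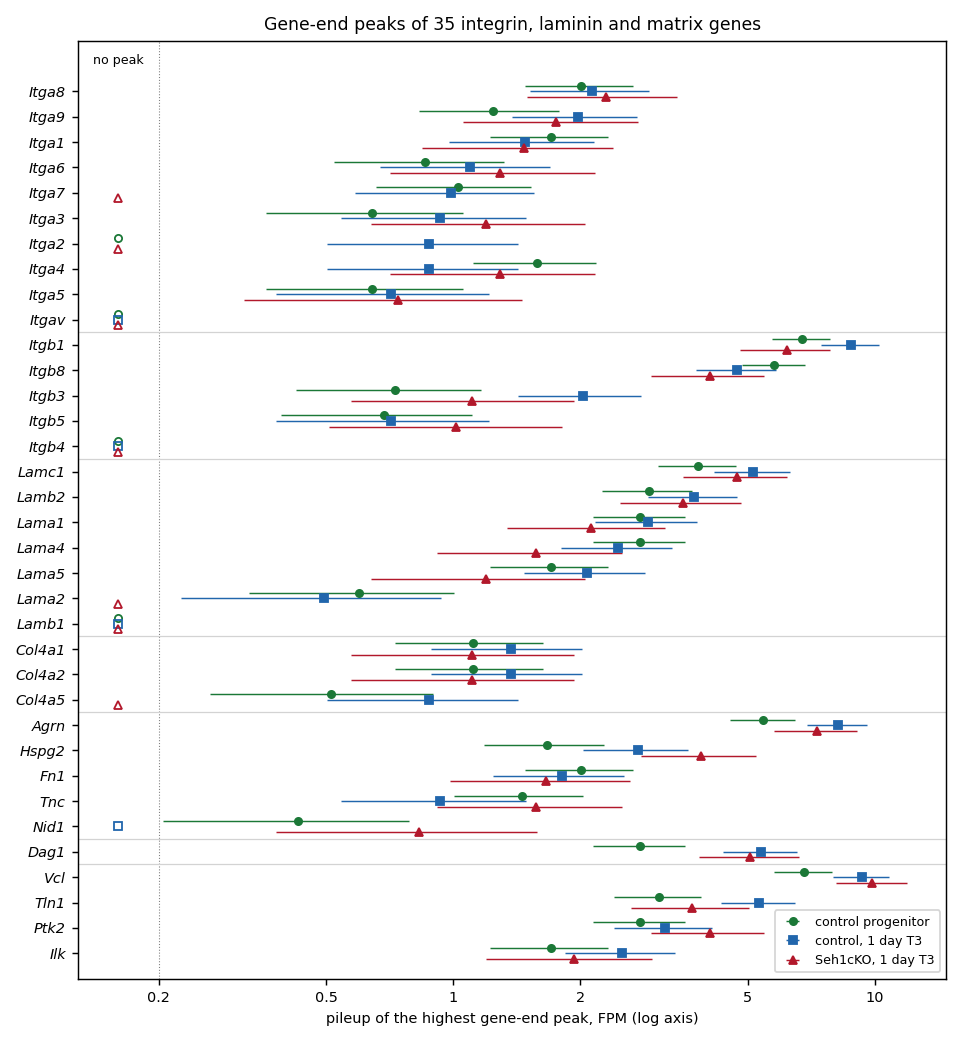
Pileup in FPM of the highest gene-end peak of each of the 35 genes (horizontal log axis), grouped by role, in the progenitor, control day 1 and Seh1cKO libraries, with bars for 95% counting intervals; open symbols at the left stand for no peak. Vcl, Itgb1 and Agrn lie furthest right at day 1, and Nid1, Lama2 and Col4a5 are near the left limit or absent.

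Integrin alpha chains choose the ligand, and most of them had modest peaks. Itga8, which pairs with beta 1 to bind RGD proteins, had 47, 39 and 25 fragments in progenitors, control day 1 and Seh1cKO (2.01, 2.14 and 2.31 FPM), the highest alpha chain in each library among peaks within 1000 bp of an annotated end. Itga6, the laminin receptor chain of this lineage, had 20, 20 and 14 fragments (0.855, 1.10 and 1.29 FPM) a low place in each library: 17.5%, 18.1% and 14.9% of all genes with a gene-end peak were lower. Its interval of the day 1 to progenitor ratio, 0.654 to 2.51, held the all-gene median of 1.39; with all gene-end peaks summed its ratio, relative to all genes on the log2 scale, went from -0.12 to -0.93. Itga4, whose product binds fibronectin and VCAM-1, had 37, 16 and 14 fragments (1.58, 0.876 and 1.29 FPM). It was the lowest of the 30 ratios between the controls, at 0.554 (interval 0.288 to 1.02), and its Seh1cKO level lay between those of the controls.

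Several alpha chains were at or near the limit of calling. Itga2, a collagen receptor chain, had 16 fragments at its start at control day 1 and no gene-end peak in the other libraries, yet a peak deep in the gene at chr13:114838462-114839491 had 160, 149 and 72 fragments. That interior peak, at 8.16 FPM at control day 1, was as high as the Agrn start. Itga7, a laminin receptor chain best known in muscle, had 24 and 18 fragments in the controls and no gene-end peak in Seh1cKO; Mettl7b ends nearby. Itga1, a collagen and laminin receptor chain, had 40, 27 and 16 fragments, a day 1 to progenitor ratio of 0.865 (0.511 to 1.45). Itga3 and Itga5, chains of laminin and fibronectin receptors, had 15, 17 and 13 and 15, 13 and 8 fragments, all intervals overlapping. Itga9, a tenascin-C receptor chain, had 29, 36 and 19 (1.24, 1.97 and 1.75 FPM).

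The gene for alpha v shows how the annotation bears on presence. Itgav, which pairs with several beta chains in this lineage, had no peak at either annotated end in any library. The RefSeq promoter window printed above starts at chr2:83724147-83724446, inside the annotated gene, and it held a peak of 64, 55 and 36 fragments (2.73, 3.01 and 3.32 FPM). That window lies more than 1000 bp inside the annotated end, so the gene-end count does not cover it. By promoter windows 18, 19 and 18 of the 26 genes had a peak (43.2%, 44.1% and 40.6% of all genes in the table), 17 of them in all 3 libraries.

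Among beta chains Itgb1 stood highest. It is the common partner of most alpha chains listed, and it had 157, 160 and 67 fragments (6.71, 8.76 and 6.18 FPM), with summits 6, 11 and 117 bases from its annotated start. The 3 peaks ranked 2nd, 2nd and 3rd among members. Its day 1 to progenitor ratio was 1.31 (1.04 to 1.64), close to the all-gene median, and its Seh1cKO to control day 1 ratio 0.705 (0.522 to 0.943) was the one interval of 27 that lay below the all-gene median of 1.00. Itgb8, the partner of alpha v that frees TGF-beta from its latent form, had 135, 86 and 44 fragments (5.77, 4.71 and 4.06 FPM), its highest level in progenitors. Its day 1 to progenitor ratio was 0.816 (0.616 to 1.08), below the all-gene median.

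Itgb3, the beta chain of the vitronectin receptor, had the highest ratio between the controls. It had 17 fragments in progenitors, 37 at control day 1 and 12 in Seh1cKO (0.726, 2.03 and 1.11 FPM), so control day 1 was the highest of the 3. The ratios were 2.79 (1.53 to 5.28) for day 1 over progenitor and 0.546 (0.259 to 1.07) for Seh1cKO over control; both use the control day 1 library. Itgb5, another alpha v partner, had 16, 13 and 11 fragments, and Itgb4, the alpha 6 partner of hemidesmosomes, had no gene-end peak.

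By their highest gene-end peaks, the laminin chains lay below the all-gene median in both comparisons. Lamc1, the gamma chain of most laminins, had 89, 94 and 51 fragments (3.80, 5.15 and 4.70 FPM) and was the highest of the 7. Lama1 had 65, 53 and 23 fragments, Lama4, a chain of vessel basement membranes, 65, 45 and 17, and Lama5 40, 38 and 13. Lamb2 had 68, 68 and 38, but this peak is at the last base of the gene, near Usp19, and its own promoter window held no peak. Lama2, the chain of muscle and brain laminin named above, had 14 and 9 fragments in the controls, both outside its promoter window, and no peak in Seh1cKO; Lamb1 had none in any library. All 6 laminin genes with a value lay below the all-gene median at day 1 over progenitor (median -0.30 on the log2 scale relative to it), and all 5 with a value lay below it in Seh1cKO over control day 1 (median -0.46). With fold enrichment in place of pileup 4 of 6 and 4 of 5 did, with Lama5 at 0.067 and Lamc1 at 0.036 between the controls and Lamb2 at 0.10 between the day 1 libraries. With all gene-end peaks summed Lamc1 was at 0.37 between the day 1 libraries. Of these 11 ratios, the interval of Lama4 between the controls, 0.593 to 1.32 around 0.887, was the 1 that lay below the all-gene median. Of all genes 49.9% lay below that median between the controls and 50% between the day 1 libraries. The lean between the controls was not particular to laminins: 6 of 8 integrin alpha chains (median -0.35) and 21 of the 30 members lay below it. Between the day 1 libraries 2 of 7 integrin alpha chains and 17 of the 27 members did.

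Collagen IV and the other matrix genes differed more among themselves. Col4a1 and Col4a2, the chains of the main collagen IV network, are transcribed in opposite directions from starts 21 bp apart and share 3, 2 and 1 gene-end peaks, the highest with 26, 25 and 12 fragments (1.11, 1.37 and 1.11 FPM). Summed, these peaks came to 2.18, 2.25 and 1.11 FPM, which took the Seh1cKO to control day 1 ratio, relative to all genes, from -0.31 to -0.96 on the log2 scale. Col4a5, next to Col4a6 on chromosome X, had 12 and 16 fragments in the controls and none in Seh1cKO. Agrn, a heparan sulfate proteoglycan that binds dystroglycan, had 127, 149 and 79 (5.43, 8.16 and 7.28 FPM), with Isg15 nearby. Hspg2, which encodes perlecan, had 39, 50 and 42 fragments (1.67, 2.74 and 3.87 FPM), so its FPM was highest in Seh1cKO. Fn1, fibronectin, had 47, 33 and 18 (2.01, 1.81 and 1.66 FPM), lower than the all-gene median at day 1 by 0.63 on the log2 scale with an interval that held it. Nid1, nidogen, had 10 fragments in progenitors, none called at control day 1 and 9 in Seh1cKO. The progenitor and Seh1cKO peaks were different sites, at chr13:13437016-13437173 and chr13:13438010-13438148.

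Tnc encodes tenascin-C, a glycoprotein of the developing brain matrix that progenitors meet. Its start peak had 34, 17 and 17 fragments (1.45, 0.931 and 1.57 FPM). By this highest peak the control day 1 level was the lowest of the 3: the day 1 to progenitor ratio was 0.641 (0.336 to 1.18) and the Seh1cKO to control day 1 ratio 1.68 (0.808 to 3.51). That order rests on taking the highest peak, since Tnc had 2 gene-end peaks at control day 1 and 1 in each of the others. With all gene-end peaks summed the levels were 1.45, 1.64 and 1.57 FPM, control day 1 the highest. Relative to all genes, on the log2 scale, the sum brought the day 1 to progenitor ratio from -1.12 to -0.30 and the Seh1cKO to control day 1 ratio from 0.75 to -0.0039.

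Dag1 and 3 of the 4 adhesion proteins were among the 11 highest members in each library. Dag1, whose product is the alpha and beta dystroglycan that links laminin to the dystrophin complex, had 65, 98 and 55 fragments (2.78, 5.37 and 5.07 FPM). Both day 1 libraries were above progenitors in FPM, with a day 1 to progenitor ratio of 1.93 (1.40 to 2.69) against 1.39 over all genes. Vcl, vinculin, had 159, 170 and 107 (6.79, 9.31 and 9.87 FPM), the highest member in every library, with its summit 160 bases before the promoter table's start in all 3. Tln1, talin, had 72, 97 and 40 (3.08, 5.31 and 3.69 FPM), with an end of Creb3 within 2000 bp. Ptk2, focal adhesion kinase, had 65, 58 and 44 (2.78, 3.18 and 4.06 FPM), and Ilk, integrin-linked kinase, had 40, 46 and 21, in a cluster of gene ends with Rrp8, Taf10 and Tpp1. Ilk ranked 14th, 12th and 13th among members, and its Seh1cKO to control day 1 ratio of -0.38, relative to all genes on the log2 scale, was 0.36 with a gene-end window of 2000 bp.

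In presence, 5 members differed between the libraries. Between the controls 1 gained a gene-end peak at day 1, Itga2 (5.52% of all genes did), and 1 lost it, Nid1 (4.72%). Between the day 1 libraries Seh1cKO lacked the peak of 4 genes, Itga2, Itga7, Lama2 and Col4a5 (8.17%). It had a gene-end peak at 1, Nid1, where control had none (1.12%), at a different site from the Nid1 peak of progenitors. These 5 genes had at most 24 fragments at the peak in any library, with 9 or 10 in some cases.

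In level, the members followed the all-gene shift between the controls with a few exceptions. The median day 1 to progenitor ratio of the 30 members was 1.23 against 1.39 over the 12630 genes with a peak in both, a relative log2 ratio of -0.17, with 9 members above the all-gene median and 21 below (49.9% of all genes each). Past 2-fold relative to that median were 2 lower, Itga4 at -1.32 and Tnc at -1.12 (1.98% of all genes), and 1 higher, Itgb3 at 1.01 (1.05%), which is 3 either way (3.03%). The next in size were Itgb8 at -0.77, Lama2 at -0.75, Itga1 at -0.68, Lama4 at -0.65 and Fn1 at -0.63. Counting intervals lay above the all-gene median for Itgb3 and Dag1 and below it for Itga4, Tnc, Itgb8 and Lama4, and held it for the other 24. With fold enrichment over the local background in place of pileup, 0 members were past 2-fold.

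Between the day 1 libraries 0 of 27 members were past 2-fold, against 3.28% of the 12049 genes with a peak in both (1.48% higher and 1.8% lower). The median ratio of the 27 members was 0.918 against 1.00, with 10 members above the all-gene median and 17 below (50% of all genes each). The largest relative log2 ratios were -0.88 for Itgb3, -0.80 for Lama5, 0.75 for Tnc, -0.66 for Lama4 and 0.56 for Itga4. Tln1 at -0.53, Itgb1 at -0.51 and Itgb5 at 0.51 followed; with fold enrichment Itgb5 was at -0.015. Genes whose day 1 value was far from the progenitor value enter both comparisons through the shared control day 1 library, so the sets of ratios are not independent.

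**Figure D2:**
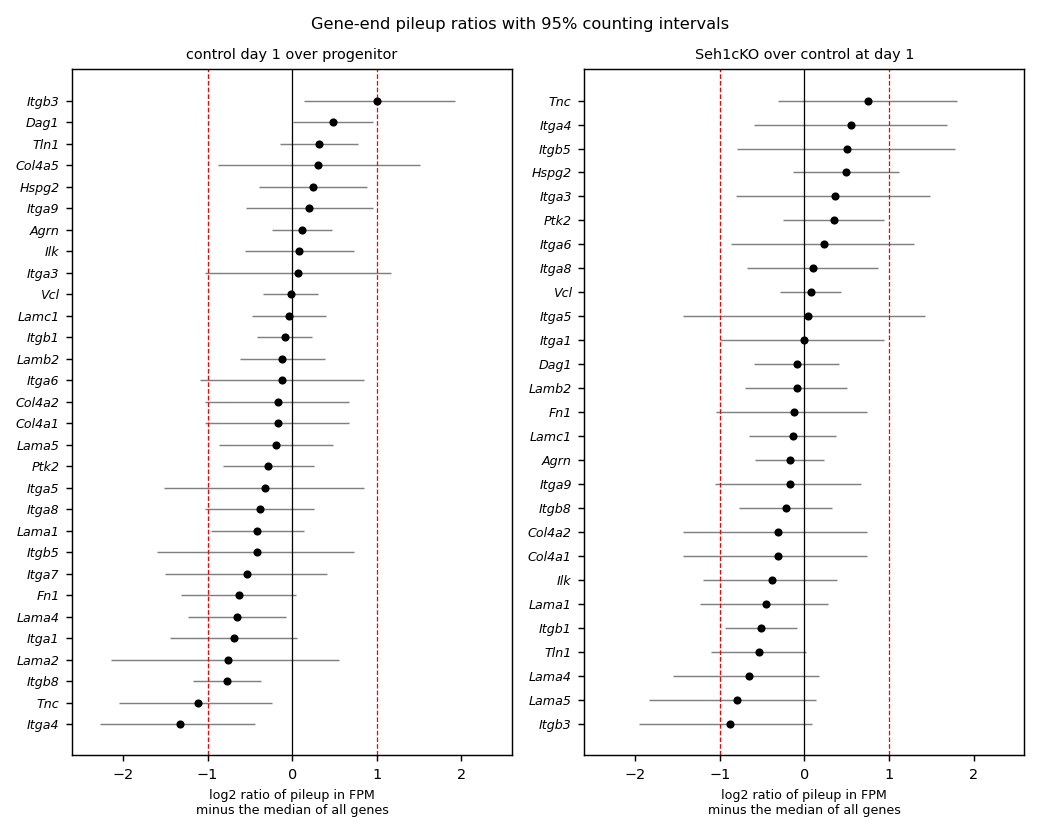
Log2 ratio of gene-end FPM, relative to the median of all genes (horizontal axis), for 30 members between the controls (left) and 27 members between the day 1 libraries (right), with 95% counting intervals; dashed lines mark 2-fold. Itga4, Tnc and Itgb3 pass a dashed line on the left and no gene does on the right.

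Most of the DNA searched around these long genes was the genes themselves, and most of their accessible sites lay inside them. Their median length was 77689 bp against 17170 bp over all protein-coding genes, and with 10000 bp on either side they held 270 distinct peaks in progenitors, 315 at control day 1 and 125 in Seh1cKO. Per gene the median was 7, 8 and 3 peaks against 3, 3 and 1 over all genes, while per 100000 bp of locus it was 7.64, 7.64 and 2.87 against 5.96, 6.48 and 2.96. Itga9 held the most at control day 1, 29, after 24 in progenitors and with 7 in Seh1cKO. Ptk2 held 17, 25 and 7, Lama2 14, 18 and 6, Vcl 13, 14 and 2, Hspg2 10, 14 and 3, and Itgb5 16, 13 and 9. At the other end, Itgb1 held 2 in every library, and Col4a5 held 3, 5 and 0. The Seh1cKO count was 39.7% of that at control day 1 for these genes and 42.7% for the loci of all genes, with 59.4% of the fragments.

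Merged across libraries, the peaks made 451 sites. Of them 97 (21.5%) were called in all 3 libraries, against 21.7% of the sites in all gene loci, and 43 (9.53% against 7.52%) in both controls but not in Seh1cKO. At control day 1 alone there were 166 sites (36.8% against 35.2%), in progenitors alone 122 (27.1% against 29.6%) and in Seh1cKO alone 12 (2.66% against 2.89%). Both day 1 libraries but not progenitors shared 4 (0.887% against 1.87%), and progenitors and Seh1cKO 7 (1.55% against 1.18%). The all-locus share lay inside the members' counting interval for all of these patterns. Lama2 held 4 of the 12 that only Seh1cKO called, and Itga9 20 of those that only control day 1 called. The summit lay within the gene, not beside it, at 70 of the 97 shared sites and at 141 of the 166 sites of control day 1 alone. Of the 97 shared sites 27 had their summit within 1000 bp of a gene end, against 8 of the 166. These places of the summits were not counted over all gene loci, and the genes made up most of the DNA searched.

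**Figure D3:**
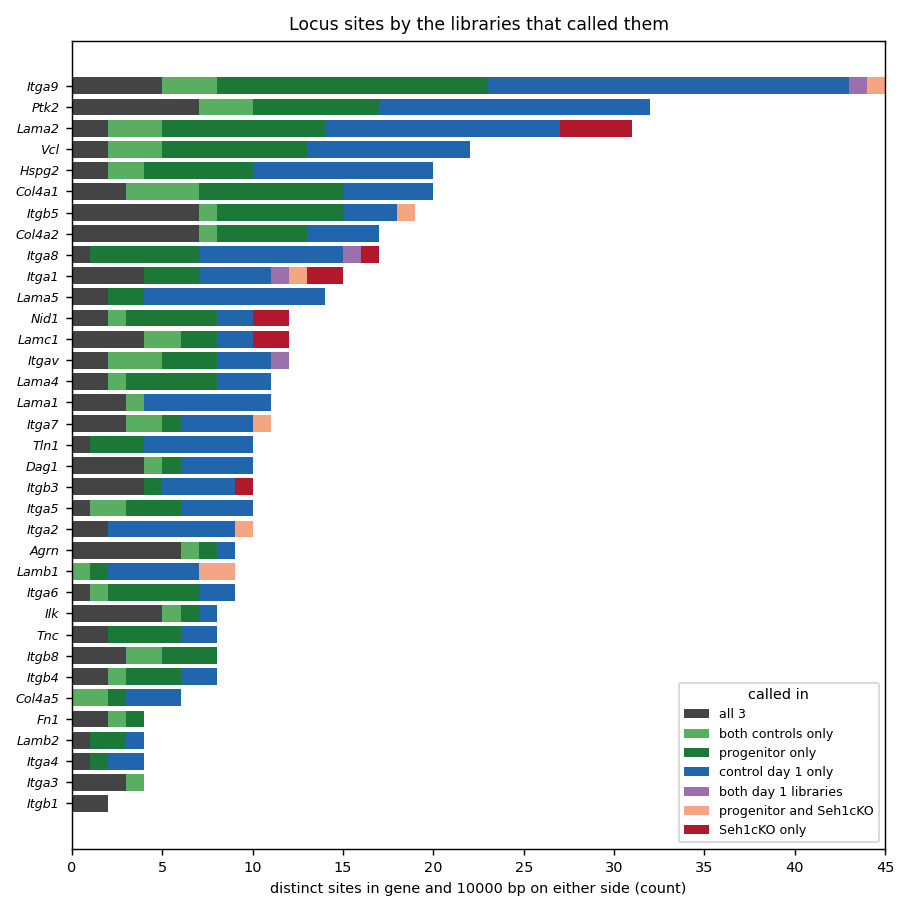
Number of distinct sites in each gene and 10000 bp on either side (horizontal axis), coloured by the libraries that called them. Itga9, Ptk2 and Lama2 hold the most sites, most of them in 1 library, and the 2 sites of Itgb1 were called in all 3.

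Peaks of these genes were kept between libraries at about the rate of all gene loci. Of the 315 control day 1 peaks 143 overlapped a progenitor peak, 45.4% (exact Clopper-Pearson interval 39.8 to 51.1) against 45.0%, and of those with -log10 q of at least 10, 85 of 92 did (92.4% against 90.1%). A Seh1cKO peak overlapped 103 of the 315, 32.7% (27.5 to 38.2) against 35.7%, and 73 of the 92 strong ones, 79.3% (69.6 to 87.1) against 82.1%. Of the 143 also present in progenitors Seh1cKO had 97, 67.8% against 72.2%, and of the 172 not present there it had 6, 3.49% against 5.80%. The all-locus shares lie inside the members' intervals for all of these.

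Between the controls, 5 of the 97 shared sites were past 2-fold higher at day 1 relative to the gene-end median (3.58% of the sites in all gene loci) and 6 lower (3.99%). A site in Col4a2, 23617 bases into the gene at chr8:11336174-11336845, had the highest ratio, with 14 fragments in progenitors, 62 at control day 1 and 11 in Seh1cKO. Its day 1 to progenitor ratio was 5.68 (3.14 to 11.0), while the highest peak at the Col4a1 and Col4a2 start had 26 and 25 fragments. Inside Itga3, chr11:95056568-95057133 had 12, 38 and 9 fragments, and inside Lama2, chr10:27468075-27468629 had 19, 48 and 16. The remaining 2 were the Itgb3 end and a site beyond Itgb4, at chr11:116012406-116012842, with 16, 35 and 15.

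The 6 lower sites were in Lama4, Lama1, Tnc and Itga4. In Lama4, chr10:39044472-39045042 had 94 fragments in progenitors, 27 at control day 1 and 18 in Seh1cKO, a day 1 to progenitor ratio of 0.368 (0.231 to 0.570); the day 1 libraries had 1.48 and 1.66 FPM. Lama1 had 2 such sites, chr17:67741362-67741562 with 39, 16 and 17 fragments and chr17:67698259-67698811 with 34, 18 and 10. Tnc also had 2, its start and chr4:64002087-64002821, which had 24, 9 and 19. So the laminin alpha genes held sites that were higher at day 1 (Lama2) and lower (Lama1 and Lama4). With fold enrichment in place of pileup 3 sites were past 2-fold higher, in Col4a2, Itga3 and Lama2, and 2 lower, in Tnc (inside the gene) and Lama1.

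Between the day 1 libraries 10 of the 97 sites were past 2-fold lower in Seh1cKO (9.78% of the sites in all gene loci) and 1 higher (1.45%), and 63 lay below the gene-end median (60.2%). Col4a2 held the largest difference: chr8:11362034-11362614 had 45, 83 and 13 fragments, a Seh1cKO to control day 1 ratio of 0.264 (0.135 to 0.476), and the site described above had a ratio of 0.299 (0.142 to 0.572). Another Col4a2 site, at chr8:11405646-11406175, had 12, 22 and 13 fragments, which is 1.20 FPM in both day 1 libraries. In Lamc1, chr1:153273571-153274053 had 60, 70 and 14 fragments, in Itga7, chr10:128951469-128951799 had 23, 35 and 7, and in Hspg2, chr4:137503423-137504021 had 33, 63 and 16. Itgb8 at chr12:119206571-119207433 had 55, 77 and 20. Sites of Itga3, Nid1, Ptk2 and Itga9 made up the 10, and 7 of the 10 were past 2-fold with fold enrichment as well. The 1 higher site was that inside Tnc, with 9 fragments at control day 1 and 19 in Seh1cKO, a ratio of 3.55 (1.53 to 8.92).

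**Figure D4:**
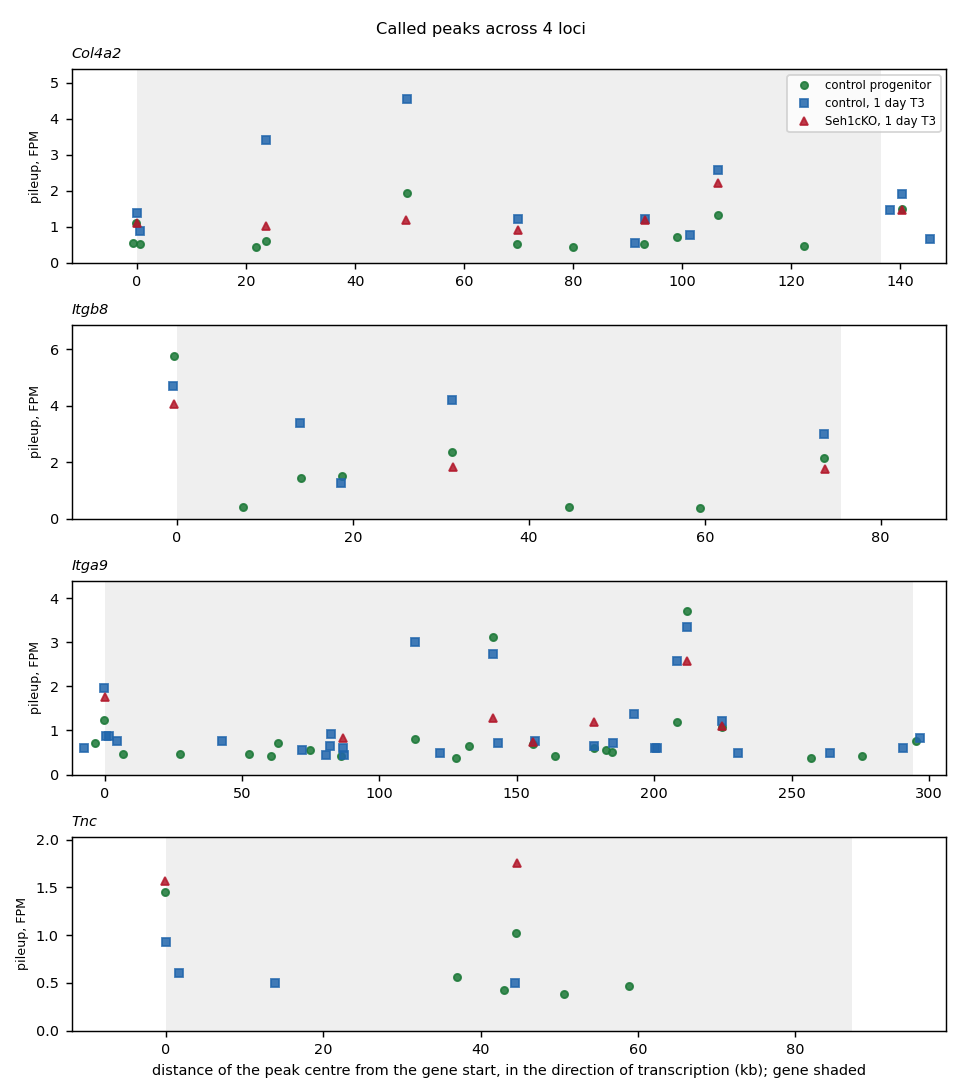
FPM of every called peak (vertical axis, scaled to each panel) by distance from the gene start in kb, for Col4a2, Itgb8, Itga9 and Tnc, with the gene shaded. The sites about 24 and 49 kb into Col4a2 stand at 3.40 and 4.55 FPM at control day 1 and at 1.01 and 1.20 in Seh1cKO, while the site inside Tnc called in all 3 libraries stands lowest at control day 1.

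Some sites of the controls had no Seh1cKO peak although their control level, set to the Seh1cKO depth, was well above its lowest called pileup of 6 fragments. Of the 140 member sites called in both controls 43 were missing in Seh1cKO; 25.7% of such sites in all gene loci were. At the Seh1cKO depth 36 of the 43 would hold at least 6 fragments, a count not made for all gene loci. A pileup of 6 is the lowest called, not a level at which every site is called. At day 1 13 of the 43 had -log10 q of at least 10. Of the 85 day 1 peaks that strong and shared with progenitors, Seh1cKO had 72, 84.7% (75.3 to 91.6) against 88.7% in all gene loci. The strongest of the 43 was in Itgb8, at chr12:119224056-119224639, with 34 and 62 fragments in the controls, which is 36.8 at the Seh1cKO depth. Its nearest Seh1cKO peak was 13256 bp away, and 1.13% of equally strong peaks in all gene loci were missing. Next came chr9:118719458-118719852 in Itga9, with 19 and 55 fragments (32.7 at the Seh1cKO depth; 1.54% missing). Nid1 at chr13:13482178-13482568 had 48 and 59, Itga9 at chr9:118814914-118815297 28 and 47, and Itgav at chr2:83740454-83741162 24 and 41. Their nearest Seh1cKO peaks were 789, 3189 and 15300 bp away, and 4.48%, 4.55% and 4.74% of equally strong peaks were missing. The 43 sites were lower in the controls than the 97 shared ones, with a median of 0.931 against 2.03 FPM at day 1.

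**Figure D5:**
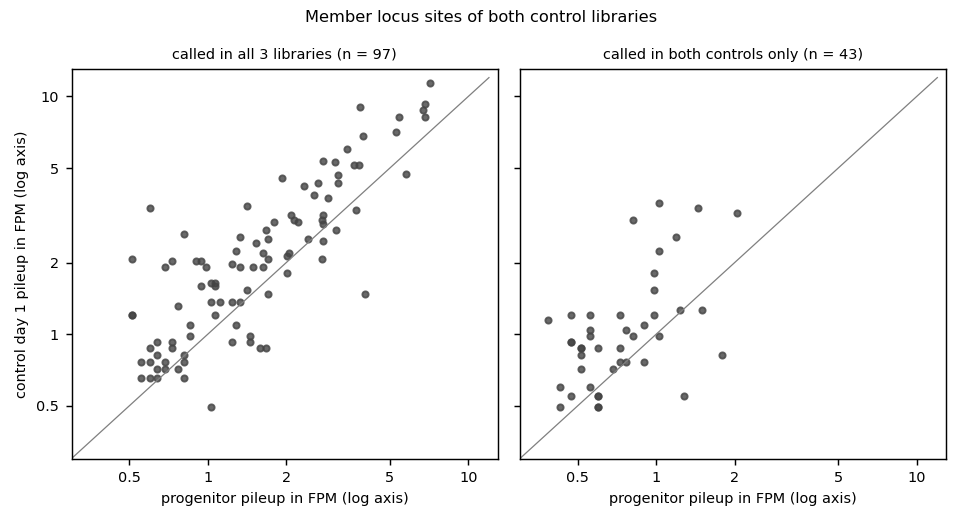
FPM in progenitors (horizontal log axis) and control day 1 (vertical log axis) for sites of these genes called in all 3 libraries (left, 97) and in both controls only (right, 43); the line marks equality. The right panel reaches 2.05 and 3.56 FPM on its axes and the left one 7.14 and 11.4.

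Other one-sided peaks were weaker. Between the controls the strongest day 1 peaks with no progenitor peak were in Itga9 (chr9:118799016-118799528) and Itgav (chr2:83771320-83771662), each with 25 fragments, then in Lama2 (chr10:27127447-27128006) and Ptk2 (chr15:73260450-73260825) with 22, and beyond Col4a2 (chr8:11450784-11450974) with 27. None of the 5 was called in Seh1cKO, and 4.54% to 6.67% of equally strong peaks in all gene loci had no progenitor peak. The strongest progenitor peaks lost at day 1 were in Itgb5 (chr16:33934586-33935190), with 26 fragments and also called in Seh1cKO, and Hspg2 (chr4:137494759-137494925) with 23. Itga5 (chr15:103358774-103358897), Itga8 (chr2:12221929-12222134) and Nid1 (chr13:13494110-13494334) followed with 21, 20 and 18. The Itga5 peak lay 3 bp from a day 1 peak and the Hspg2 peak 244 bp from one. Of equally strong progenitor peaks in all gene loci 0.940% to 5.64% had no day 1 peak. Seh1cKO peaks with none at control day 1 were led by 1 beyond Itga7, chr10:128928407-128928610, with 20 fragments and also called in progenitors. Those in Itga8 (chr2:12242289-12242804), Itga1 (chr13:114992395-114992530), Lamb1 (chr12:31318527-31318762) and Lamc1 (chr1:153302203-153302347) had 11, 11, 10 and 11. The Lamb1 peak was also called in progenitors and lay 244 bp from a control day 1 peak. The Itga1 peak lay 96 bp from a control day 1 peak. Of equally strong Seh1cKO peaks in all gene loci 0.438% to 4.12% had none at control day 1.

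The highest site of all was not at a gene start. Inside Ptk2, chr15:73222600-73223530 had 167 fragments in progenitors, 208 at control day 1 and 66 in Seh1cKO (7.14, 11.4 and 6.09 FPM), above every gene-end peak of the members in both controls. Its Seh1cKO to control day 1 ratio was 0.534 (0.399 to 0.708), while the Ptk2 end had 3.18 and 4.06 FPM. Inside Nid1, whose end was barely called, chr13:13480922-13481429 had 90, 165 and 52 fragments, ratios of 2.35 (1.81 to 3.07) between the controls and 0.531 (0.381 to 0.729) between the day 1 libraries. Whether any of these sites acts on the gene that holds it was not measured.

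Related genes off the list gave the setting. For comparison, 62.4%, 63.2% and 56.2% of all protein-coding genes had a gene-end peak in progenitors, control day 1 and Seh1cKO. Past 2-fold either way were 3.03% of all genes with a value between the controls and 3.28% between the day 1 libraries. Of 12 other genes with integrin or integrin-like names 3, 4 and 2 had a gene-end peak in the 3 libraries. The leukocyte chains Itgal, Itgam, Itgax and Itgb2 had none in any. Past 2-fold between the controls was 1 of 3, the integrin-like Itgbl1 at -1.57, and between the day 1 libraries 0 of 2. Of 10 other basement membrane genes 5, 6 and 4 had one, with 1 of 4 past 2-fold between the controls, Col18a1 at -1.19, and 0 of 4 between the day 1 libraries. Among 27 adhesion adaptors and effectors, 22 had one in each library (Fermt1 and Fermt2, which encode kindlins, did, and Pxn, which encodes paxillin, had none in any), with 0 of 21 past 2-fold between the controls and 1 higher and 1 lower of 22 between the day 1 libraries. Of 13 genes of the dystroglycan complex and its glycosylation 13, 12 and 10 had one, with 0 of 12 and 1 of 10 (lower) past 2-fold. Of 15 other matrix genes of the brain 8, 11 and 8 had one, with 1 of 8 past 2-fold lower in each comparison.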

How the data were processed

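The submitters' processing notes name Bowtie2, SAMtools and MACS2, with mm10 as the build. MACS 2.1.2_dev had called each library's peaks on its own, from fragments of read pairs at a q cutoff of 0.05, with the caller set to keep all duplicates left in its input and no control library, per the file headers. A shift of reads for the transposase cut is stated in none of the labels or headers. The authors deposited for each peak its summit pileup (a signal in fragments, not normalized), its fold enrichment over the local background (a ratio) and its -log10 p and -log10 q. Pileup was divided by the header's fragments and given per 1000000 (FPM), and the ratios are relative to the median of all genes with a gene-end peak in both libraries; called means past 2-fold. A gene-end peak overlaps 1000 bp on either side of an annotated RefSeq GRCm38.p6 gene end, and a locus is the gene and 10000 bp on either side. Overlap meant at least 1 bp, and highest peaks were taken by pileup. Intervals are exact (Poisson for a pileup, Clopper-Pearson for a share, and the exact binomial interval of 1 pileup in the sum of 2 for a ratio). With no molecular identifiers, fragments may be copies, so intervals cover counting error only. Exons and introns were not annotated.

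The members and all lists were chosen with earlier results of these data known. Genes named are those whose gene-end presence differed, the 8 largest ratios per comparison, the 6 highest gene-end pileups and the 6 loci with most peaks at control day 1, the 5 strongest one-sided peaks per comparison and direction, and Itga6, Itgb1, Lama2, Dag1, Fn1, Tnc and Ptk2; other sites and genes were named after their values were seen. The scripts were tested on simulated data; Python 3.11.15, numpy 2.4.6, pandas 2.3.3, scipy 1.17.1 and matplotlib 3.10.9 were used. Alternatives varied the peak threshold, list length, windows, flanks, overlap, scaling and the quantity compared.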

Additional observations from a re-analysis of the deposited data

How the results depend on the processing

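No paired analysis was possible because each group has 1 library, and no replicate could be left out. Of 100 alternative values of the counts, shares and medians, 76 stayed and 24 moved. Staying meant within 1.5 times (counts), the counting interval (shares) or the order-statistic interval (medians). Restricted, after seeing the data, to the 21 members with no other gene's end within 2000 bp, 19, 19 and 18 had a gene-end peak, and on promoter windows 18, 19 and 18 did; both hold fewer genes. The median log2 ratio between the controls, 0.30, was -0.17 when pileup was scaled to the median gene-end pileup. That scaling takes out the all-gene shift, a median of 0.47, and so comes near the relative log2 ratio of -0.17 given above. With fold enrichment the members' median was 0.022. Its sign thus depends on the scale, and the cause of the all-gene shift was not tested. With fold enrichment 0 members were past 2-fold between the controls, 0 higher and 0 lower, and with lists of equal length (46113 peaks) 0 were higher. At that length the loci held 129 peaks in progenitors and 129 at control day 1. With -log10 q of at least 5 they held 126, 154 and 76, and with flanks of 50000 bp 462, 510 and 214. The share of control day 1 peaks found in progenitors was 63.6% and 72.1%, and in Seh1cKO 45.5% and 66.7%, at -log10 q of at least 5 and at equal length, so the share that Seh1cKO lacked depends on the peaks counted. Over 6 alternatives Itga4 ran from -1.79 to -0.82 (past 2-fold in 5), Tnc from -1.13 to -0.30 (in 4) and Itgb3 from 0.89 to 1.01 (in 4). Of 329 alternative ratios of single genes, without the scaling that cancels in them, 21 changed sign and 10 moved by over 1.5 times. With peaks summed Itga7 between the controls went from -0.53 to -1.20, Lama4 from -0.65 to -1.04, Itgb5 from -0.42 to 0.40 and Col4a5 from 0.30 to 1.00, and with fold enrichment Ilk went from 0.086 to -0.53. Itgb8 between the controls went from -0.77 to -0.31 with fold enrichment, and the sites past 2-fold between the controls from 5 to 3 higher and from 6 to 2 lower. Depth limits what Seh1cKO can show: its lowest called pileup, 0.553 FPM, is above those of the controls, 0.385 and 0.438.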
